A study of Mus musculus with 20 samples.

Results

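The Pate genes encode small secreted proteins of the mouse male reproductive tract, and 3 of them, Pate4, Pate9 and Pate14, had elements on the cDNA array used to profile the prostates of 5 inbred mouse strains. All array elements with one of these as their single gene symbol were taken, 10 of the 11552 elements on the array: 1 for Pate4, 7 for Pate9 and 2 for Pate14. The genes were selected on the log2 ratios described here, since differences between strains in Pate4 and Pate14 were known when they were picked. The groups were normal, untreated male mice of the strains DBA/2, BALB/c, FVB/NJ, 129X1/SvJ and C57BL/6J, aged 8 to 9 weeks. They carried no transgene or engineered allele, and the question was how transcript levels in the healthy gland vary with genetic background. By the authors' methods, the C57BL/6J, 129X1/SvJ and FVB/NJ mice came from the Jackson Laboratory and the BALB/c and DBA/2 mice from Charles River. Between these sets, strain and supplier cannot be told apart. Each strain gave 4 pools, each of the amplified RNA of 3 mice with the dorsal, lateral, ventral and anterior lobes in equal amounts, so that 60 mice were measured on 20 arrays of 2 colors. Every array set 1 pool against a common reference that combined RNA of all pools of all strains. Per strain, 2 pools were labeled with Cy3 and 2 with Cy5. A value is therefore a log2 ratio of a pool to the mixture of all strains: 0 is the level of the mixture, a difference of 1 between pools is a 2-fold difference, and values of different elements say nothing about which gene was more abundant.

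Pate is short for prostate and testis expressed. The proteins have the three-finger fold of the Ly6/uPAR family, a compact shape held by disulfide bonds, which membrane receptors such as the urokinase receptor and secreted toxins of snakes also have. Many Pate proteins are made by the epididymis, seminal vesicle or prostate, enter the seminal fluid and can bind to sperm. Pate4 also carries the symbol Svs7, for a secretory protein of the seminal vesicle, and Pate14 carries the symbol Sslp1, for a secreted Ly6 protein of the seminal vesicle. Both are thus known from a gland that is attached to the anterior prostate at dissection. In the RefSeq gene table of GRCm38.p6 the 14 Pate genes of the mouse all lie on chromosome 9, with Pate4 at one end of the row, Pate14 at the other end and Pate9 separated from Pate14 by Pate8. The other 11 Pate genes had no element with a single symbol here.

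The 250 bases before the start of Pate9 and of Pate14, from RefSeq on GRCm38.p6, are shown because these genes, which lie near each other on the chromosome, had strain ranges of different size. Both genes lie on the minus strand, Pate9 with chr9:36541964-36542213 and Pate14 with chr9:36638603-36638852, and the sequence is that of the reference mouse, C57BL/6J, read 5′ to 3′ toward the gene. Capitals mark matches of TATATA.
Pate9: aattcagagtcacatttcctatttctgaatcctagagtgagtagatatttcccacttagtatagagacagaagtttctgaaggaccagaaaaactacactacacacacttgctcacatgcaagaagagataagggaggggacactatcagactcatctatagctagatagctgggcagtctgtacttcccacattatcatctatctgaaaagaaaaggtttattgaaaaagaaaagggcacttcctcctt
Pate14: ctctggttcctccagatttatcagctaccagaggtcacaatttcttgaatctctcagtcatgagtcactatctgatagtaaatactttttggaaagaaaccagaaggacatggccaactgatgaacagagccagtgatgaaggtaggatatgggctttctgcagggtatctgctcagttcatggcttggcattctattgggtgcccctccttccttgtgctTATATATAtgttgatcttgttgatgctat
The run of capitals in Pate14 holds 2 overlapping matches of TATATA, with first bases 29 and 27 before the start. Of 32851 promoters of the same length, 5.25% held TATATA on the gene's strand or the other strand. The letters TATAAA, in 12.4% of promoters, and TGTTCT, a core of androgen response elements found in 16.1%, had no match in either sequence. The bases were 39.2% G or C before Pate9 and 42.8% before Pate14. Pate4 had no entry. The sequence of C57BL/6J alone cannot show differences between strains, and no link of these letters to the strain ranges was tested.

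All 10 elements had a value in every pool and passed the filter on missing values, which 11159 of 11552 elements passed. The array medians lay between -0.01 and 0.02. The arrays of 129X1/SvJ were more dispersed than the others, with median absolute deviations of 0.29 to 0.44 against 0.16 to 0.29 in the other strains. Arrays of 1 strain had a median correlation of 0.465 with the same dye and of 0.29 with opposite dyes, and arrays of different strains had one of 0.0774 with the same dye and of -0.128 with opposite dyes. Ratios cannot show whether a gene is absent, so the label of the tissue could not be checked. Of the listed genes, 12 of 17 prostate secretory genes and 7 of 11 luminal epithelial markers had measured elements. On an array built from genes of the mouse prostate, this does not test the label. Because the pools are bulk tissue, fewer cells of a type and less RNA per cell cannot be told apart.

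Pate4 was highest in BALB/c and its level also moved over a wide range between pools of a single strain. The BALB/c pools 1 to 4 measured 2.30, 1.48, 1.02 and 1.41 on the log2 ratio scale (mean 1.55 ± 0.54, SD, n = 4). FVB/NJ measured 0.15, -3.89, -0.13 and -0.99 (mean -1.21 ± 1.85), with pool 2 far below the other pools of the strain. The DBA/2 pools lay close together at -2.14, -2.51, -2.56 and -1.85 (mean -2.27 ± 0.33). All 4 BALB/c pools were above the reference and above the 16 pools of the other strains, a separation that 0.296% of all elements showed for BALB/c.

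The lowest Pate4 means were those of 129X1/SvJ and C57BL/6J. In C57BL/6J the pools measured -3.06, -1.34, -2.57 and -2.97 (mean -2.48 ± 0.79), and pool 2 was the highest of them. In 129X1/SvJ they measured -3.66, -0.84, -4.05 and -3.95 (mean -3.13 ± 1.53), and pool 2 again stood above the others. The order of the means was thus BALB/c, FVB/NJ, DBA/2, C57BL/6J and 129X1/SvJ. Of the 10 pairs of strains, the 4 that included BALB/c had pools that did not overlap, and the other 6 pairs overlapped. Over all elements with no missing value, 9% of strain pairs did not overlap.

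The mean of BALB/c was 4.68 above that of 129X1/SvJ on the log2 scale, a 25.6-fold difference, and without pool 2 of 129X1/SvJ the difference was 5.44. BALB/c was 6.79-fold above FVB/NJ, 14.1-fold above DBA/2 and 16.4-fold above C57BL/6J. The SD within strains was 1.17, larger than in 99.2% of all elements, whose median SD was 0.22. Pate4 was picked with its difference among strains in these data known, so these levels are a description, and calls made from the same contrast are no independent evidence of it.

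**Figure D1:**
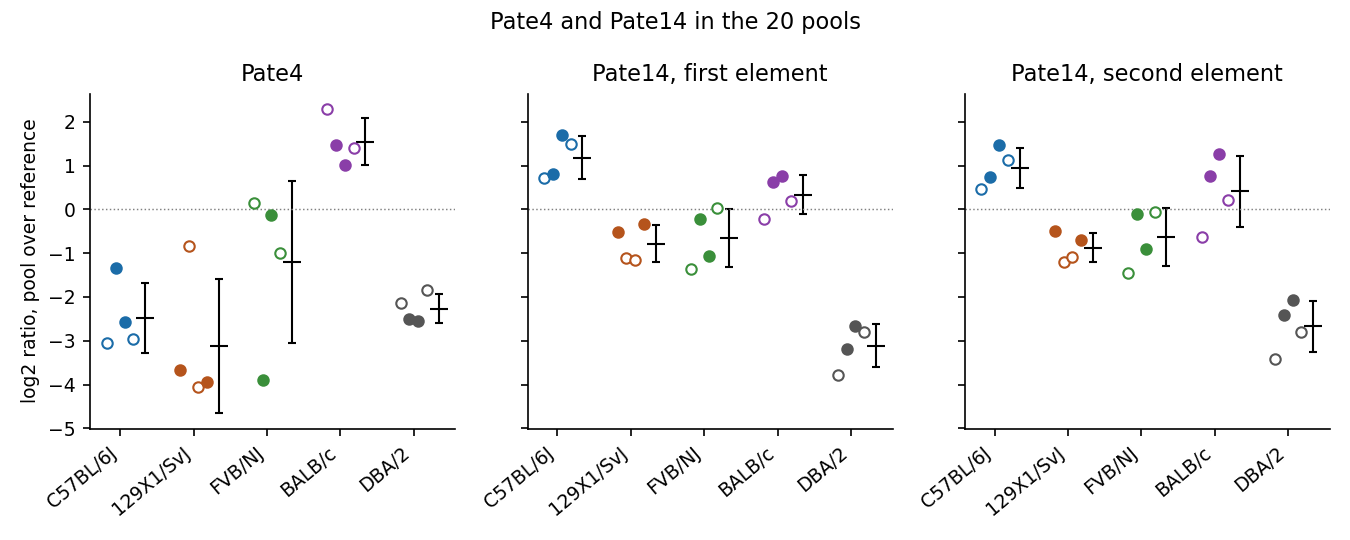
Log2 ratio of pool over reference (vertical axis) for Pate4 and the 2 elements of Pate14 in the 4 pools of each strain, with the sample in Cy3 as open circles and in Cy5 as filled circles; bars are the strain mean and 1 SD. Pate4 is above 0 in every BALB/c pool and widely spread in FVB/NJ and 129X1/SvJ, whereas both Pate14 elements place DBA/2 lowest, at -2.07 or below in every pool.

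Pate14 showed another order of strains, with its highest level in C57BL/6J and its lowest in DBA/2. By the element numbered 4348, which represents the gene, the DBA/2 pools measured -3.79, -3.20, -2.66 and -2.81 (mean -3.11 ± 0.50). The C57BL/6J pools measured 0.71, 0.82, 1.70 and 1.5 (mean 1.18 ± 0.49). BALB/c measured -0.21, 0.63, 0.77 and 0.19 (mean 0.34 ± 0.44). The DBA/2 pools all lay below the 16 pools of the other strains, as 0.305% of all elements did for this strain, whereas the C57BL/6J and BALB/c pools overlapped.

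Between these extremes, FVB/NJ and 129X1/SvJ had nearly equal levels of Pate14. FVB/NJ measured -1.35, -0.21, -1.07 and 0.04 (mean -0.65 ± 0.67). The 129X1/SvJ pools measured -0.51, -1.12, -1.16 and -0.33 (mean -0.78 ± 0.42) and overlapped with those of FVB/NJ. The range of the strain means was 4.30 on the log2 scale, or 19.7-fold between C57BL/6J and DBA/2. Of the 10 strain pairs 7 did not overlap, beside 9% of pairs over all elements with no missing value. The step from 129X1/SvJ to DBA/2 was the only one between neighbors in the order with no overlap, at 5.05-fold.

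The other Pate14 element, numbered 6244, gave the same order of the 5 strains. Its DBA/2 pools measured -3.42, -2.41, -2.07 and -2.80 (mean -2.67 ± 0.58), and its C57BL/6J pools 0.46, 0.73, 1.47 and 1.14 (mean 0.95 ± 0.45). In BALB/c it measured -0.62, 0.77, 1.26 and 0.22 (mean 0.41 ± 0.81). The lowest C57BL/6J pool was thus above every DBA/2 pool by either element. FVB/NJ measured -1.45, -0.10, -0.91 and -0.06 (mean -0.63 ± 0.67), and 129X1/SvJ -0.49, -1.20, -1.08 and -0.71 (mean -0.87 ± 0.32). The range by element 6244 was 3.62, or 12.3-fold, with 6 of 10 strain pairs not overlapping, beside the same 9% over all elements. The 2 elements had a correlation of 0.982 over the 20 pools and of 0.902 once strain means were removed, and differed by at most 0.79 in any pool. They may hold overlapping sequence of 1 transcript and are not separate evidence for the gene. The Pate14 SD within strains was 0.51 and 0.59, against 1.17 for Pate4.

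Pate9 had smaller ranges of strain means than Pate4 and Pate14, and its elements did not move together. The annotation matched 6 of its 7 elements to the sequence of a genomic clone and the element numbered 10489 to an mRNA, so what the other 6 elements detect is less certain. By element 10489 the BALB/c pools measured 0.41, 0.51, 0.72 and -0.16 (mean 0.37 ± 0.37) and the DBA/2 pools 0.02, 0.35, 0.34 and -0.21 (mean 0.12 ± 0.27). The FVB/NJ pools measured -0.16, 0.49, -0.14 and -0.04 (mean 0.04 ± 0.31). All strains overlapped by this element. The C57BL/6J pools measured 0.05, -0.33, 0.27 and -0.84 (mean -0.21 ± 0.48), and the 129X1/SvJ pools 0.07, 0.02, -1.26 and -0.65 (mean -0.46 ± 0.63). The range of its strain means was 0.83, or 1.77-fold.

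The other Pate9 elements put different strains first. The highest mean was that of BALB/c for element 9, of DBA/2 for elements 779 and 5151, of 129X1/SvJ for element 3722 and of C57BL/6J for elements 6866 and 7946. Element 9, which represents the gene by the rule of fewest missing values and lowest number, measured -0.34 ± 0.07 in C57BL/6J, -0.09 ± 0.66 in 129X1/SvJ, -0.03 ± 0.23 in FVB/NJ, 0.26 ± 0.21 in BALB/c and -0.43 ± 0.13 in DBA/2. The ranges of the strain means ran from 0.22 for element 779 to 1.08 for element 6866, against a median of 0.32 and a 95th percentile of 0.94 over all elements tested. The range of element 779 was at percentile 23.8 of all elements, and those of the other 6 were at percentiles 79.3 to 96.4. Element 6866 also had the widest spread within strains of the 7, with an SD of 0.72. Of the 70 pairs of strains over the 7 elements, 4 did not overlap, in elements 9 and 7946, beside 9% of pairs over all elements with no missing value. Over 21 pairs of these elements, the correlation over the 20 pools ran from -0.467 to 0.33 with a median of 0.146, and with strain means removed 7 pairs were below 0. This contrasts with the 0.982 of the Pate14 elements.

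**Figure D2:**
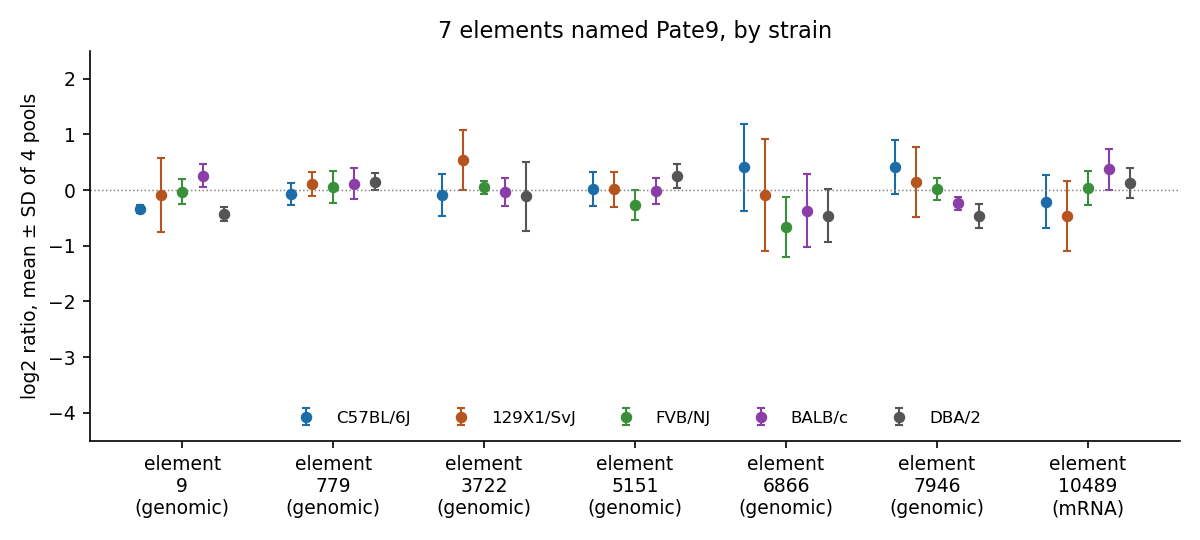
Strain mean of the log2 ratio (vertical axis, points) with 1 SD over 4 pools (bars) for each of the 7 Pate9 elements, with its match in the annotation in brackets under the axis, on a vertical axis wide enough for the range of Pate4 and Pate14. All means lie between -0.67 and 0.54, and the order of the strains differs between the elements.

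In the limma fit over all 11159 elements, 3 of the 10 Pate elements, that of Pate4 and both of Pate14, passed the moderated F test over the 5 strains at an adjusted p of at most 0.1, as did 11.3% of all elements. Set against the mean of the other 4 strains, the same 3 elements passed in at least 1 strain at an adjusted p under 0.05, as did 9.96% of all elements. Pate4 was called higher in BALB/c, where 0.914% of elements were, and lower in 129X1/SvJ, where 2.74% were. Both Pate14 elements were called higher in C57BL/6J, where 1.77% were, also higher in BALB/c, and lower in DBA/2, where 0.869% were. No Pate9 element passed either test. Since the genes were picked with these contrasts known, the counts stand only beside the shares of all elements. With the arrays of Cy5-labeled pools alone, Pate4 did not pass the F test.

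Within strains, Pate4 followed the seminal vesicle genes Svs2 and Svs5, which encode major proteins of seminal vesicle secretion. With strain means removed from both, Pate4 and Svs2 had a Pearson correlation of 0.919 over the 20 pools (two-sided permutation of pools within strains, adjusted p = 0.00225 over 9 pairs, unadjusted p = 0.00025) and a Spearman correlation of 0.881 (adjusted permutation p = 0.00306). A deviation in Svs2 came with 0.45 of it in Pate4 on the log2 scale, and 19 of 20 pools deviated in the same direction in both genes. Pate4 and Svs5 had a Pearson correlation of 0.887 (adjusted permutation p = 0.00302, unadjusted p = 0.00067) and a Spearman correlation of 0.859 (adjusted permutation p = 0.00428), with the same direction in 16 of 20 pools. Svs2, Svs5 and this test were chosen with earlier results of these data known. The adjustment over 9 pairs does not allow for that choice, so the p-values are no independent evidence. The pools that stood apart in Pate4 stood apart in Svs2 and in Svs5. Svs2 measured -1.58 in pool 2 of C57BL/6J against -7.63, -4.79 and -5.11 in pools 1, 3 and 4. In 129X1/SvJ it measured -1.06 in pool 2 against -5.97, -7.31 and -7.21. In FVB/NJ the low value of Pate4 in pool 2 came with -6.84 in Svs2, against 0.12, -0.36 and -1.26. These are the pools in which Pate4 was high in C57BL/6J and 129X1/SvJ and low in FVB/NJ. Svs5 took the same turns, with -1.08, -0.13 and -4.89 in pool 2 of C57BL/6J, 129X1/SvJ and FVB/NJ.

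The relation rested to a large part on those 3 pools. Leaving out the 2 pools farthest from the median of Pate4, pool 2 of FVB/NJ and pool 2 of 129X1/SvJ, left Pearson correlations of 0.834 with Svs2 and 0.776 with Svs5. Without pool 2 of C57BL/6J as well, a choice made after seeing the data, the correlation was 0.522 with Svs2 (adjusted permutation p = 0.157) and 0.387 with Svs5 (adjusted permutation p = 0.258). With deviations taken from the mean of all 4 pools of a strain, the Pate4 and Svs2 correlation was 0.86 over the pools labeled with Cy3 and 0.974 over those labeled with Cy5. With strain means taken within each dye, which leaves 2 pools per strain, it was 0.814 and 0.978 (adjusted permutation p = 0.938 and 0.112). With 2 pools per strain the permutations are too few for any correlation to pass, so these p-values decide nothing. Each of the other 4 elements of Svs2 in place of its representative gave 0.901 to 0.906. The 2 elements are numbered close together on the array, 2906 for Pate4 and 2903 for Svs2. Of the elements between them, 2904, a Tgm4 element, had a within-strain correlation of 0.101 with Pate4 and 2905 one of 0.205, against a median of 0.27 for all adjoining elements.

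**Figure D3:**
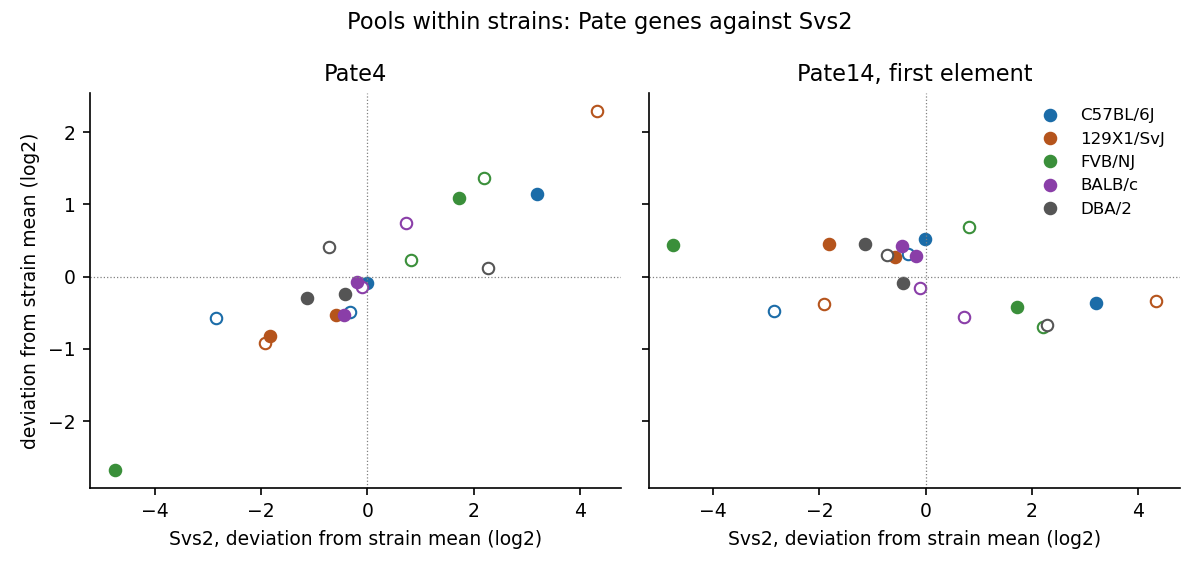
Deviation of each pool from its strain mean (log2) in Svs2 (horizontal axis) and in Pate4 or Pate14 (vertical axes), colored by strain, with open circles for samples in Cy3 and filled circles for Cy5. Pate4 rises along the diagonal with pool 2 of FVB/NJ at the lower left and pool 2 of 129X1/SvJ at the upper right (Pearson correlation 0.919), and Pate14 does not (-0.457).

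The listed seminal vesicle genes varied beside Pate4 as follows. Of 13 listed seminal vesicle genes 7 were measured, and their mean log2 ratio ran from 0.22 to 0.87 over the BALB/c pools, from -2.61 to -0.5 in FVB/NJ, from -2.78 to 0.57 in C57BL/6J, from -2.33 to 0.33 in 129X1/SvJ and from -2.39 to -1.93 in DBA/2. BALB/c had the highest mean of 4 of the 7 genes, and of 1049 of all 5820 named genes. Svs2 and Svs5 passed the F test, beside 12.5% of all named genes, and the other 5 did not, among them Svs4 with a range of 3.34 (adjusted p = 0.106 from limma). The within-strain correlation with Pate4 was above 0 for 6 of 7, from 0.301 for Svs3b through 0.439 for Svs6, 0.734 for Svs4 and 0.762 for Sva to the 0.919 of Svs2, and was -0.00681 for Svs1. All 6 measured smooth muscle markers also had within-strain correlations with Pate4 above 0, from 0.0927 for Actg2 to 0.368 for Tagln. So did 2 of 7 luminal epithelial, 1 of 2 basal epithelial and 2 of 3 leukocyte markers. Some of these markers had larger values of either sign, with 0.503 for Foxa1, 0.467 for Epcam and -0.604 for Fcer1g. The share of all named genes above 0 was not computed. Whether seminal vesicle tissue or any cell type in the dissected samples had a part in the levels of Pate4 was not tested, and none of the 26 listed genes of epididymis and vas deferens had a measured element.

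Pate14, though likewise known from the seminal vesicle, had negative within-strain correlations with the same genes that did not pass the test. They were -0.457 with Svs2 (adjusted permutation p = 0.172) and -0.394 with Svs5 (adjusted permutation p = 0.222), and -0.492 with Pate4 (adjusted permutation p = 0.172). The Spearman correlations were -0.368, -0.335 and -0.377 (adjusted permutation p = 0.217, 0.225 and 0.217), and the Pearson values without the 2 pools farthest from the median of the first gene of each pair were -0.336, -0.32 and -0.458. Without pool 1 of C57BL/6J the Pate14 and Svs2 correlation was -0.62 and passed (adjusted permutation p = 0.0318). Whether the correlations of Pate4 and of Pate14 with Svs2 differ was not itself tested. By strain means Pate4 and Pate14 parted in C57BL/6J, which was below the reference in Pate4 (-2.48) and above it in Pate14 (1.18). Every other strain was on the same side of the reference in both genes, BALB/c above it and the rest below. C57BL/6J was 16.4-fold below BALB/c in Pate4 and 1.79-fold above BALB/c in Pate14. Pate9 by element 9 had correlations of 0.391 with Pate14, -0.208 with Pate4, -0.218 with Svs2 and -0.264 with Svs5, none of which passed (adjusted permutation p of 0.172 to 0.527), and its Spearman correlations did not pass either (adjusted permutation p of 0.217 to 0.225). Without the 2 farthest pools they were 0.289, -0.111, -0.451 and -0.378. By the mRNA-matched element 10489 the Pearson correlations were 0.248 with Pate14, -0.0473 with Pate4, -0.0421 with Svs2 and 0.113 with Svs5, and none passed (adjusted permutation p of 0.475 to 0.9).

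The dye of the sample, which was not used to pick the genes, gave a difference that passed the test in 2 elements. In the limma fit with strain and dye, 2 of the 10 elements had different ratios with the sample in Cy5 and in Cy3 at an adjusted p under 0.05, where 15.9% of all elements did. At an unadjusted p under 0.05 there were 4 of 10, where 31.3% of all elements were. For only 10 elements both counts are near the shares of all elements, so they show nothing particular to the Pate elements. Pate14 by element 6244 was 0.63 higher in Cy5 (standard error 0.19, means -0.25 and -0.88, limma adjusted p = 0.0318), and higher in 5 of 5 strains. Pate9 by element 5151 was 0.29 higher in Cy5 (standard error 0.10, limma adjusted p = 0.0489), also in 5 of 5 strains. Both sit near the threshold: leaving out 1 pool at a time ended the call of Pate14 element 6244 for 8 of 20 pools (adjusted p of 0.0501 to 0.0676), namely pools 1 and 3 of C57BL/6J, BALB/c and DBA/2 and pools 1 and 2 of FVB/NJ. The call of Pate9 element 5151 ended for 16 of 20 pools (adjusted p of 0.0506 to 0.094), all but pool 4 of 129X1/SvJ, pools 1 and 2 of FVB/NJ and pool 1 of DBA/2. With quantile normalization Pate14 element 6244 differed by 0.38 (limma adjusted p = 0.264). With the pool number as a block both calls were lost (limma adjusted p = 0.0546 for Pate14 element 6244 and 0.0883 for Pate9 element 5151). In every strain but 129X1/SvJ the same pool numbers carried the same dye, and in 129X1/SvJ they carried the opposite one. Only the arrays of 129X1/SvJ then tell dye from pool number, so this loss says little about the dye difference. The remaining elements did not pass, and Pate4 differed by -0.61 (standard error 0.45, limma adjusted p = 0.379) and Pate14 by element 4348 by 0.39 (standard error 0.19, limma adjusted p = 0.169). Because each strain had 2 pools of each dye, a dye difference common to the strains cancels in the strain means. A difference in dye effect between strains passed for 0 of 10 elements with limma (adjusted p of 0.874 to 1, and 0 at an unadjusted p under 0.05), where 0.485% of 11136 elements passed and 7.4% did at the unadjusted p.

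**Figure D4:**
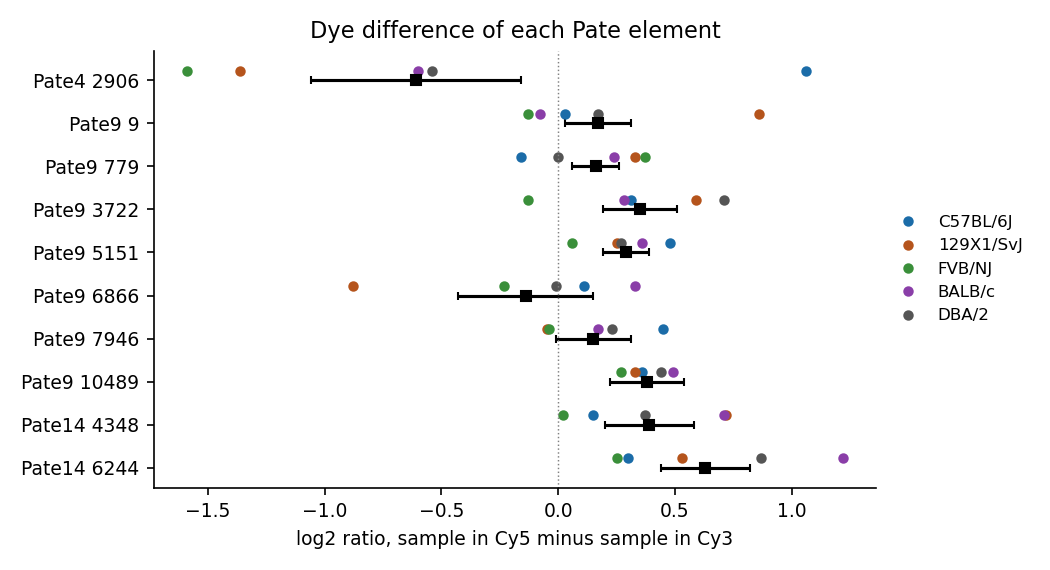
Mean log2 ratio of pools labeled with Cy5 minus that of pools labeled with Cy3 (horizontal axis) for each Pate element, as the limma estimate with 1 standard error (squares and bars) and in each strain (colored points, 2 pools of each dye). All strains lie above 0 for both Pate14 elements and for Pate9 elements 5151 and 10489, whereas Pate4 ranges from -1.59 in FVB/NJ to 1.06 in C57BL/6J.

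The genes whose pattern over the 20 pools was most like that of Pate4, among 5659 named genes with no missing value, were Tshz2 (Pearson correlation 0.966), Svs2 (0.953), Smpd1 (0.938), Svs5 (0.919) and Tlr4 (0.801). With strain means removed, Tshz2 (0.93), Svs2 (0.919), Svs5 (0.887) and Smpd1 (0.866) led again, followed by Usp15 (0.803). Tshz2 encodes a zinc finger protein and Smpd1 the acid sphingomyelinase, and the Smpd1 element, 8773, adjoins that of Svs5, 8774. For Pate14 the closest over 20 pools were Tceanc2 (0.873), Fam199x (0.842), AW146154 (0.841), Gramd3 (0.8) and Uggt1 (0.796). None of these was among the closest to Pate14 with strain means removed, which were Vasn (0.779), Zpbp2 (0.773), Lrrc28 (0.757), Cdk1 (0.746) and Spink2 (0.744). For Pate9 by element 9 they were Mrps18c (0.791), Fgf12 (0.789), 4930453N24Rik (0.772), Ccdc58 (0.756) and Tmem167 (0.75) over the pools, and Gm8129 (0.941), Gm3596 (0.902), Naf1 (0.876), Zscan25 (0.871) and Vps37c (0.87) with strain means removed. These are descriptions: the points share arrays and dyes, and the highest of many values is high by selection.

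Other genes of the three-finger family showed further orders of strains. Of 51 listed family members outside the 3 Pate genes, 8 were measured and 3 passed the F test, beside 12.5% of 5820 named genes. Ly6e, which encodes a membrane-anchored Ly6 protein, was lowest in BALB/c, with a range of 3.97 on the log2 scale (15.6-fold between DBA/2 and BALB/c). Psca, the prostate stem cell antigen, ranged over 2.11 and was highest in 129X1/SvJ and lowest in C57BL/6J. Lypd5 ranged over 0.87 with the same highest and lowest strains as Psca. The other 5, among them Plaur, the urokinase receptor, with a range of 0.35, and Slurp1 with one of 0.16, did not pass. The median range of the 8 genes was 0.57, against 0.33 over all named genes and 4.68 and 4.30 for Pate4 and Pate14. Of 17 listed prostate secretory genes, 12 were measured and 8 passed, with a median range of 1.42. Spink8, a protease inhibitor, was highest in BALB/c like Pate4, with a range of 3.37 and a within-strain correlation of -0.281 with it. Pbsn, the androgen-driven secretory protein probasin, had a range of 0.70 and did not pass.

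Markers of epithelium, smooth muscle and leukocytes had smaller ranges of strain means than Pate4 and Pate14, which were picked with their strain differences known. The seminal vesicle genes Svs2 and Svs5 had larger ranges, of 7.57 and 6.67. The rest of the 7 measured seminal vesicle genes had smaller ones, and the median of the 7 was 1.67. Of 7 measured luminal epithelial markers only Epcam passed the F test (range 0.87), and none of 2 basal epithelial or 6 smooth muscle markers did. Of all 5820 named genes 12.5% passed, so counts from lists this short do not show that the markers were stable. The median range was 0.35 for the luminal, 0.45 for the basal and 0.43 for the smooth muscle markers, against 0.33 over all named genes. Of 3 measured leukocyte markers, Lyz2 passed with a range of 0.93 and was highest in BALB/c like Pate4, and Cd52 passed with a range of 0.70 and was highest in DBA/2. Whether composition had a part in the Pate levels was not tested.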

How the data were processed

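From scanned 2-color cDNA arrays the authors took signals less local background and corrected the ratios array by array with print-tip loess. What they deposited are the authors' log2 ratios of pool over common reference for 11552 elements, with 2.89% missing, and were used with no further scaling. Intensities were not used here, so signal over background is unknown, and precision is limited by having 20 arrays. Strain and dye came from the labels, and the replicates were pools of separate mice. Gene symbols came from the platform annotation (8050 elements with 1 symbol, 672 with several, 2830 not listed), and the gene identifiers of all 10 Pate elements matched RefSeq.

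The 11159 elements that lacked no more than 3 values and had 2 or more per strain were fitted with limma 3.58.1 in R 4.3.3, over strain means, with a dye term, or with dye within strain. P-values were adjusted by Benjamini and Hochberg over all elements tested. Correlations used deviations from strain means, with 100000 permutations of pools within strains, adjusted over 9 pairs. A gene was represented by its element with the fewest missing values, then the lowest number. Named were all Pate elements, the 5 genes most like each member, the elements numbered next to a member, Svs2, Svs5 and genes of the lists for related families, secretory tissues and cell types. The Pate genes, lists and tests were chosen with earlier results of these data known. The scripts were tested on simulated data. Alternatives covered missing values, centring, scaling, quantile normalization, single dyes, array weights, spread, gene averages, the strain 129X1/SvJ, the pool number as a block and each pool left out.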

Additional observations from a re-analysis of the deposited data

Results flagged for a closer look

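Within each strain, the highest or lowest of the 4 pools was checked for a gap to its nearest neighbor that takes up more of the range of the pools than Dixon's 95% critical value, which chance gives in about 1 in 20 groups. It was found in 6 of 50 groups of Pate elements and strains. The share over all elements of the array was not computed, so this count does not show an excess for the Pate elements. For Pate4, pool 2 of 129X1/SvJ stood apart at -0.84 on the log2 ratio scale, with the nearest pool at -3.66. For Pate9, element 779 stood apart in pool 3 of C57BL/6J at -0.37, element 3722 in pool 1 of C57BL/6J at -0.64 and in pool 3 of FVB/NJ at -0.13, and element 7946 in pool 4 of C57BL/6J at -0.32 and in pool 1 of DBA/2 at -0.80. No Pate14 element had such a pool. Pool 2 of FVB/NJ, at -3.89 in Pate4, was not among them, since the other pools of this strain were themselves spread.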

How the results depend on the processing

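No called value changed sign. Among correlations that passed no test, that of Pate4 with Pate9 was 0.785 over samples in Cy3 alone, that of Pate9 with Svs2 was 0.564 in Cy3 alone and 0.0939 with elements averaged by gene, and that of Pate9 with Svs5 was 0.684, 0.139 and, by the mRNA-matched Pate9 element, 0.113, where the reported values were below 0. The range of strain means of Pate14 was 5.19 (element 4348) and 4.40 (element 6244) with arrays scaled to equal spread, and with single pools left out it ran from 4.07 to 4.45 and from 3.37 to 3.82; that of Pate4 ran from 4.37 to 5.44, and has no value without 129X1/SvJ, its lowest strain. The count of Pate elements past the F test (3) and past the test of 1 strain against the others (3) was 5 each with arrays scaled, quantile normalization, array weights or without 129X1/SvJ, where Pate9 elements 9 and 7946 were added in the F test, and 3 to 5 with single pools left out. The count past the dye test (2) was 3 with arrays scaled, array weights or without 129X1/SvJ, where Pate9 element 10489 was added, and 3 with quantile normalization, where Pate4 and Pate9 element 10489 were added and Pate14 element 6244 was lost. It was 1 with centred arrays, 0 without moderation or with elements averaged by gene, 1 without pool 2 of C57BL/6J, 129X1/SvJ and FVB/NJ (added after seeing the data), and 0 to 2 with single pools left out. The within-strain correlation of Pate4 with Svs2 and Svs5 was 0.814 and 0.841 over samples in Cy3 alone (adjusted permutation p = 0.938 for both) and 0.978 and 0.95 in Cy5 alone (adjusted permutation p = 0.112 for both), where 2 pools per strain leave too few permutations for any correlation to pass. It was 0.522 and 0.387 without the 3 pools named above, and 0.872 to 0.951 and 0.831 to 0.925 with single pools left out. That of Pate4 with Pate14 was -0.554 with quantile normalization (adjusted permutation p = 0.0453) and -0.515 by the other Pate14 element (adjusted permutation p = 0.0473, chosen after seeing the data), and -0.574 to -0.409 with single pools left out. That of Pate14 with Svs2 was -0.547 with quantile normalization (adjusted permutation p = 0.0453) and -0.62 to -0.391 with single pools left out. Pools share numbers across strains, and deviations of same-numbered pools had median correlations of 0.0587 to 0.288 per pool number. Single correlations ran from -0.33 to 0.421. By a rule that every pair be above 0.1, the numbers were not taken to pair the pools. Same-numbered pools also shared the dye, except in 129X1/SvJ, which had the opposite one. These correlations therefore mix dye with any pairing and cannot decide whether the numbers pair pools. With the pool number as a block, 1 Pate element passed the dye test, Pate9 element 9, which had not passed without the block. Both reported dye calls were lost in that fit, in which only the arrays of 129X1/SvJ tell dye from pool number. With the block 4 elements passed the F test, and the correlation of Pate4 with Svs2 was 0.919. The cause of these changes was not tested.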
